A study of Mus musculus with 5 samples.

Results

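Liver RNA of mice that returned to a normal diet supplemented with all-trans retinoic acid was compared with liver RNA of untreated control mice. The 2 pools were chosen by their labelled treatment, HFHFr-NA and Control, and are 2 of the 5 arrays of the series, each hybridised with RNA pooled from 5 mice. All animals were C57BL/6J males, a common inbred laboratory strain, 25 weeks old. HFHFr-NA mice had first eaten HFHFr, a diet rich in fat and fructose, for 16 weeks and then the normal diet with added retinoic acid for 4 weeks, and their labels call them normal, having recovered from insulin resistance. Control mice carry the label untreated, and neither what they ate nor the amount of retinoic acid is stated in the labels. The other 3 pools are quoted beside these values. HFHFr-N ate the HFHFr diet for 16 weeks and the normal diet for 4 weeks and is labelled insulin resistant. HFHFr-F ate the HFHFr diet for 20 weeks, and HFHFr-FA ate it for 16 weeks and then for 4 weeks with retinoic acid. HFHFr-NA and Control differ in both the earlier HFHFr feeding and the later retinoic acid, which cannot be told apart within this pair of pools.

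Each group is 1 array, so that nothing below could be tested or checked against replicates, and "higher" and "lower" describe these pools. Levels are log2 processed signals minus the array's 75th percentile, so that 0 is the 75th percentile, and ratios are HFHFr-NA minus Control on that log2 scale. A gene counts as measured if its probe stood well above background in Control, in HFHFr-NA or in both. If it did so in only 1 of them, the ratio is a bound and is given with "at least". Where 5 levels are listed without names, they follow a fixed order: first Control, next HFHFr-N, next HFHFr-NA, next HFHFr-F and last HFHFr-FA. Spots well above background made up 46.7% of those on the Control array and 49.0% on that of HFHFr-NA, both on the same slide (control spots left out), and the single array per pool limits the precision. Hepatocyte markers fitted the liver label: all 13 of 13 were measured on both arrays, with a median log2 ratio of 0.05, 0 of them 2-fold apart, and albumin (Alb) at 10.66 in Control and 10.73 in HFHFr-NA. In bulk liver, fewer cells of a type and less RNA per cell cannot be told apart.

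In HFHFr-NA 295 of the 14726 measured genes (2.0%) were higher by 2-fold or more, and 213 (1.45%) were lower by as much, with 31 and 27 of them past 4-fold. The median over all measured genes was 0.05. Genes that degrade or respond to retinoic acid, some acute phase proteins, metallothioneins and several clock genes were among the higher ones. The lipid desaturase Scd1, enzymes typical of male liver, and glutathione transferases and cytochromes P450 of detoxification were among the lower ones.

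**Figure D1:**
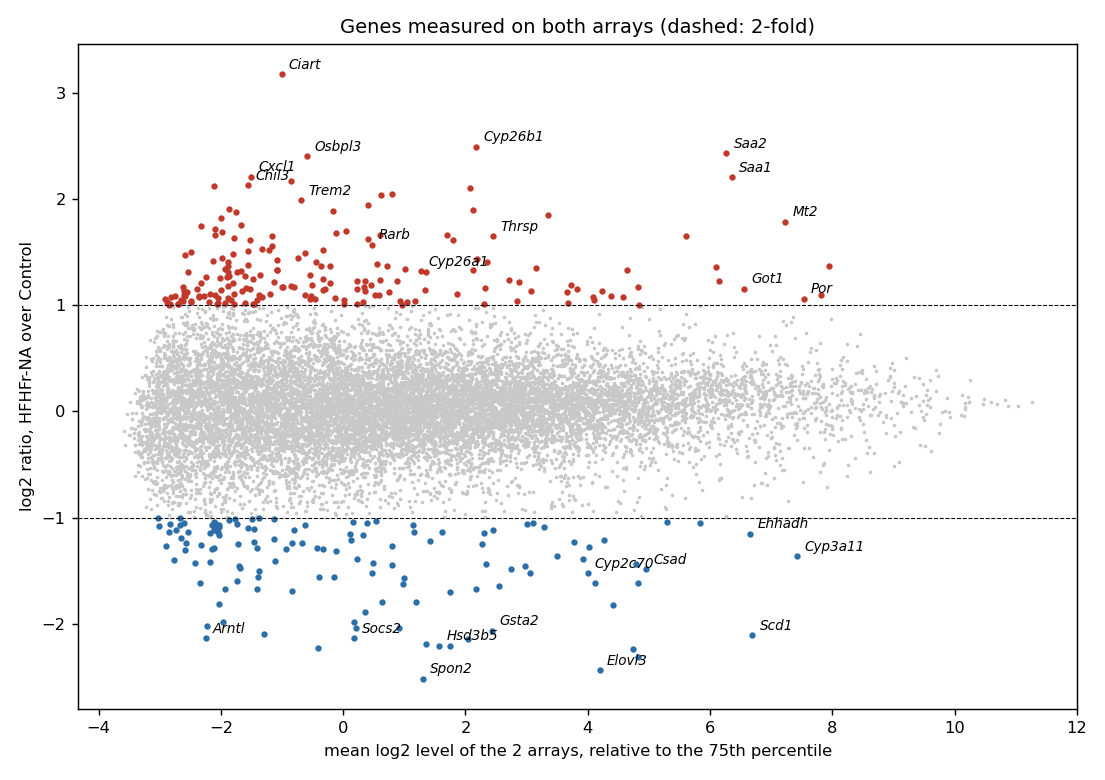
Each point is a gene measured on both arrays, with its mean log2 level of the 2 arrays (relative to the 75th percentile) on the x axis and its log2 ratio of HFHFr-NA over Control on the y axis. Dashed lines mark 2-fold, red and blue points lie past it, 187 higher and 130 lower, including the bright genes Scd1, Cyp3a11, Mt2, Saa1 and Saa2.

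Retinoic acid binds nuclear retinoic acid receptors (RARs), which sit on DNA as partners of retinoid X receptors (RXRs) and switch on genes when the ligand arrives. The classical response element is a direct repeat of a short half-site with a spacer of 5 bases, and among its best known carriers are the receptor gene Rarb and Cyp26a1, an enzyme that oxidises retinoic acid for clearance. The liver stores most of the body's vitamin A as retinyl esters, in stellate cells. The promoters of these 2 genes are shown because their own signals were higher in HFHFr-NA. Each sequence is the 250 bases before the RefSeq transcription start (GRCm38.p6), read 5′ to 3′ on the gene's strand, with the repeat in capitals.
Cyp26a1, chr19:37697558-37697807, plus strand: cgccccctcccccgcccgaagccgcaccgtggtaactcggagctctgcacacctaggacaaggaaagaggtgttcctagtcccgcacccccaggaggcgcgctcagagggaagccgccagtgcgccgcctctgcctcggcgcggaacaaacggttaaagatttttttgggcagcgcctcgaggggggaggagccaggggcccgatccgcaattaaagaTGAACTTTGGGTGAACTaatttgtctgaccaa
Rarb, chr14:16575477-16575726, minus strand: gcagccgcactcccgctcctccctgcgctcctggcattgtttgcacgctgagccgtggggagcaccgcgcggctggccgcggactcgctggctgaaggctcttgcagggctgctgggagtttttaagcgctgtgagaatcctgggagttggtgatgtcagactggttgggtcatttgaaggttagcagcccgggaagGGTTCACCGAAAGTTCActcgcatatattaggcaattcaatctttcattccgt
The motif searched was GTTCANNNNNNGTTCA on either strand. It began 52 bases before the start in Rarb and 32 bases before the start, on the opposite strand, in Cyp26a1. It was in 18 of 27025 mouse promoters of this length (0.067%), 4 of the 9613 that belong to measured genes, and 2 of the 147 that belong to genes at least 2-fold higher, which are Cyp26a1 and Rarb. Both genes were known carriers of the repeat before the search, so these counts cannot serve as a test of the motif. A second form, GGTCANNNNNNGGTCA, was in 20 of the 27025 promoters (0.074%) and in none of the 34 promoters found for the retinoid genes described below. A match is a description of letters, and no match says nothing of a factor's binding elsewhere.

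Genes of retinoic acid clearance were high in the HFHFr-NA pool. Cyp26b1, the other liver enzyme that oxidises retinoic acid, had a level of 0.93 in Control and 3.42 in HFHFr-NA, beside 0.36 for HFHFr-N, 0.78 for HFHFr-F and 2.90 for HFHFr-FA. The pools that ate retinoic acid stood above the other 3, and HFHFr-NA was 5.63-fold above Control, a log2 ratio of 2.49. With 1 array per pool this is an order of single values, and the share of genes with the same order was not counted. Its probe lies at chr6:84521952-84522011 (mm9). Cyp26a1 had levels of 0.62, 0.54, 1.94, -1.86 and -0.75 in the fixed order, so HFHFr-NA was the highest pool and HFHFr-FA lay below Control. Its log2 ratio was 1.32, from a probe at chr19:37775566-37775625 (mm9).

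Rarb, the receptor gene that retinoic acid itself switches on, had levels of -0.32 in Control and 1.25 in HFHFr-NA, beside 0.06 for HFHFr-N, 0.42 for HFHFr-F and 0.34 for HFHFr-FA. Only the HFHFr-NA level was far from the others, with a log2 ratio to Control of 1.57, or 2.97-fold. The probe, at chr14:17263511-17263570 (mm9), was spotted 10 times. Its 10 spots on the HFHFr-NA array ran from 1.1 to 1.41 and the 9 spots kept on the Control array from -0.36 to -0.24, so the spots of the arrays did not overlap. Such a gap does not set Rarb apart, because spots within an array vary little. The spots of Stat3, which differed by 0.14, did not overlap either. Averaged over all Rarb probes, dim ones included, the ratio was 0.68.

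By at least 2-fold, 2.0% of all measured genes were higher and 1.45% lower. Of the 9 listed genes of retinoic acid clearance and receptors 7 were measured, 3 of them at least 2-fold higher (Cyp26a1, Cyp26b1 and Rarb) and 1 lower, with a median of 0.58. The lower gene was Rarg, another RAR gene, which had a dim level of -2.34 in Control and was not well above background in HFHFr-NA or HFHFr-F. Its ratio was lower by at least 1.41. Rxra, the main RXR gene of liver, had a ratio of 0.58, Rxrb 0.08 and Rxrg 0.17. The Rara probe, for the third RAR, was not well above background on either array.

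Genes that make, bind or store retinoids were mostly close to Control, as were most genes on the arrays. Of 30 listed 25 were measured, 24 of them within 2-fold of Control and none lower by as much, and the median was 0.02. Such a count does not set the list apart. Among all 14726 measured genes only 2.0% stood above Control by that much and 1.45% below it. Lrat, which esterifies retinol for storage, had a ratio of 0.75, and a further probe of it gave 0.85. Adh4, an alcohol dehydrogenase that can oxidise retinol, had a ratio of -0.59, and Dhrs4, a retinal reductase, of -0.63.

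**Figure D2:**
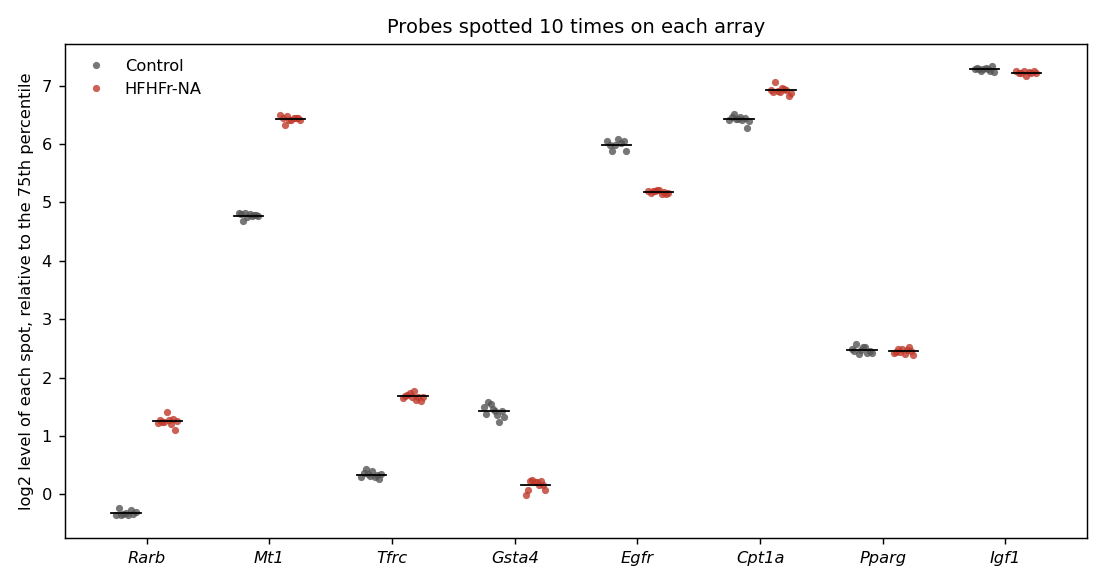
Each point is 1 spot of a probe that was printed 10 times per array, with its log2 level relative to the 75th percentile on the y axis, in Control (grey) and HFHFr-NA (red), and black lines mark the mean of the spots. The spots of Rarb, Mt1, Tfrc, Gsta4, Egfr and Cpt1a do not overlap between the arrays, those of Pparg and Igf1 do, and the spread shown is that of spots within an array, not of mice.

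Probes printed 10 times give the within-array error of a few more genes. Tfrc, the transferrin receptor, stood at 1.68 ± 0.05 in HFHFr-NA and 0.34 ± 0.05 in Control (SD, n = 10 spots each). Egfr, the epidermal growth factor receptor, stood at 5.18 ± 0.03 over 10 spots in HFHFr-NA and 5.99 ± 0.08 over 8 spots in Control. Pparg, the nuclear receptor of lipid storage, differed by -0.02 and Igf1, the main growth factor made by liver under growth hormone, by -0.06, with overlapping spots in both cases. Other probes of Igf1 gave ratios from -0.13 to 0.76.

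Among the listed genes of lipid synthesis, Scd1 was low while the other measured enzymes of that list lay within 2-fold of Control. Enzymes outside it are not covered, such as the elongase Elovl3, which was lower and is described below. Scd1, the desaturase that makes oleic acid, had levels of 7.74 in Control and 5.64 in HFHFr-NA, beside 7.96 for HFHFr-N, 8.29 for HFHFr-F and 5.26 for HFHFr-FA. Both pools that ate retinoic acid, each a single array, stood below the other 3, an order whose share among all genes was not counted. HFHFr-NA was 4.31-fold below Control (probe at chr19:44469387-44469446, mm9). Fasn (fatty acid synthase) had a ratio of 0.01, Acaca (acetyl-CoA carboxylase) 0.03, Acly (ATP citrate lyase) -0.02, Elovl6 (a fatty acid elongase) -0.41 and Gpam, which starts glycerolipid synthesis, 0.28.

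Of the regulators in the same list Srebf1 and Thrsp were higher, while Mlxipl (ChREBP), which responds to glucose, had a ratio of -0.06 and Nr1h3 (LXR alpha), a sterol receptor, of 0.27. Srebf1, the transcription factor that drives lipogenesis, had levels of 3.57, 5.30, 4.63, 5.50 and 4.29 in the fixed order. Every other pool stood above Control, and the HFHFr-NA ratio was 1.05, with values from 0.95 to 1.05 under other settings. Thrsp, a lipogenic protein controlled by thyroid hormone and diet, had levels of 1.63, 3.33, 3.28, 6.69 and 2.92 and a ratio of 1.65. Of 27 measured genes of fatty acid and triglyceride synthesis 2 were higher (Srebf1 and Thrsp) and 1 lower (Scd1), with a median of 0.17. Among all measured genes 2.0% were higher and 1.45% lower by at least 2-fold.

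Lipid droplet and uptake genes had a median of 0.03 over 26 measured members, with 1 higher and 0 lower. That 1 was Osbpl3, an oxysterol-binding protein of membrane contact sites, with levels of -1.79 in Control and 0.61 in HFHFr-NA, beside 0.62 for HFHFr-N, 1.72 for HFHFr-F and 0.85 for HFHFr-FA. Control stood alone below the 4 other pools, and the ratio was 2.41. Cidea, a lipid droplet fusion protein, had a ratio of 0.92, Cidec 0.55 and Vldlr, a lipoprotein receptor, 0.93. Hsd17b13, a droplet-bound dehydrogenase, had a ratio of -0.92, against 0.30 at another of its probes.

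In cholesterol synthesis and uptake 0 of 25 genes were past 2-fold, and their median was 0.09. Hmgcs1, early in the pathway, had a ratio of -0.95 and Mvk, mevalonate kinase, of 0.94. Of 32 genes of fatty acid oxidation and ketogenesis none was higher and 1 was lower, the median being -0.09. The lower gene was Ehhadh, a peroxisomal oxidation enzyme, with levels of 7.23 in Control and 6.08 in HFHFr-NA, beside 6.13 for HFHFr-N, 4.99 for HFHFr-F and 6.12 for HFHFr-FA. Ppargc1a, a coactivator of oxidative metabolism, had a ratio of 0.94 and Pdk4, which shuts pyruvate away from oxidation, of -0.86. Cpt1a, the gate of mitochondrial fatty acid import, differed by 0.50 over its 10 spots, and another probe gave -0.03. Apoa4, an apolipoprotein made with fat export, was the 1 of 23 apolipoprotein and lipoprotein assembly genes past 2-fold, with levels of 4.23, 3.81, 5.40, 6.58 and 5.17 and a ratio of 1.17.

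Male liver expresses a set of enzymes under the pulsed growth hormone of male mice, through STAT5, and several of these were low in HFHFr-NA. Elovl3, a male-biased fatty acid elongase, had levels of 5.41 in Control and 2.97 in HFHFr-NA, beside 3.89 for HFHFr-N, 4.05 for HFHFr-F and 5.68 for HFHFr-FA. HFHFr-NA was the lowest pool, 5.43-fold below Control. Hsd3b5, a male-specific steroid reductase, had levels of 2.67 in Control and 0.47 in HFHFr-NA, beside 1.99 for HFHFr-N and 1.12 for HFHFr-FA, and only HFHFr-F did not reach well above background. Its ratio was -2.21, as was that of its relative Hsd3b4, whose probe shares at best 21 matching bases with that of Hsd3b5 in an ungapped alignment of the 60-base probes. Whether either probe also picks up the transcript of the other gene was not examined, so the 2 ratios may not be independent.

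Socs2, the inhibitor that growth hormone induces in liver, had levels of 1.25, 0.08, -0.88, -0.07 and 1.72 in the fixed order. The HFHFr-NA pool was again the lowest, at a ratio of -2.14. Cish, a relative of Socs2, had a ratio of 0.40. Ghr, the growth hormone receptor, had a ratio of 0.04, with other probes from -0.70 to 0.71, and Stat5b one of -0.25. Of 21 measured male-biased genes 3 were lower and 0 higher, against 1.45% and 2.0% of all measured genes. In the list 16 ratios were below 0 and 5 above, among the latter Hsd3b2 at 0.66 and Selenbp2 at 0.19, and the median was -0.26. Ugt2b38, a glucuronosyltransferase, had a ratio of -0.98.

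Female-biased genes included 3 of 17 measured members past 2-fold higher and 0 lower, against 2.0% and 1.45% of all measured genes, with a median of 0.34. Cyp2b9, a cytochrome P450 low in male liver, had levels of 1.47 in Control and 2.91 in HFHFr-NA, beside 4.51 for HFHFr-N, 6.05 for HFHFr-F and 5.10 for HFHFr-FA. HFHFr-NA lay nearest to Control of the 4 diet pools, at a ratio of 1.44. Cyp2b13, its relative, followed the same order with -0.52, 2.41, 0.53, 3.90 and 2.89 and a ratio of 1.05, and the flavin monooxygenase Fmo2 had a ratio of 1.21. With normexp background correction Cyp2b13 had a ratio of 0.70 and Fmo2 of 0.84. The female-biased median ran from -0.05 to 0.50 over 11 settings, 1 of which gave the sign below 0. The 3 female-type Cyp3a genes measured had ratios below 0, -0.69 for Cyp3a16, -0.31 for Cyp3a41a and -0.66 for Cyp3a44. These are close relatives of each other and of Cyp3a11, and signal shared between their probes was not examined.

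**Figure D3:**
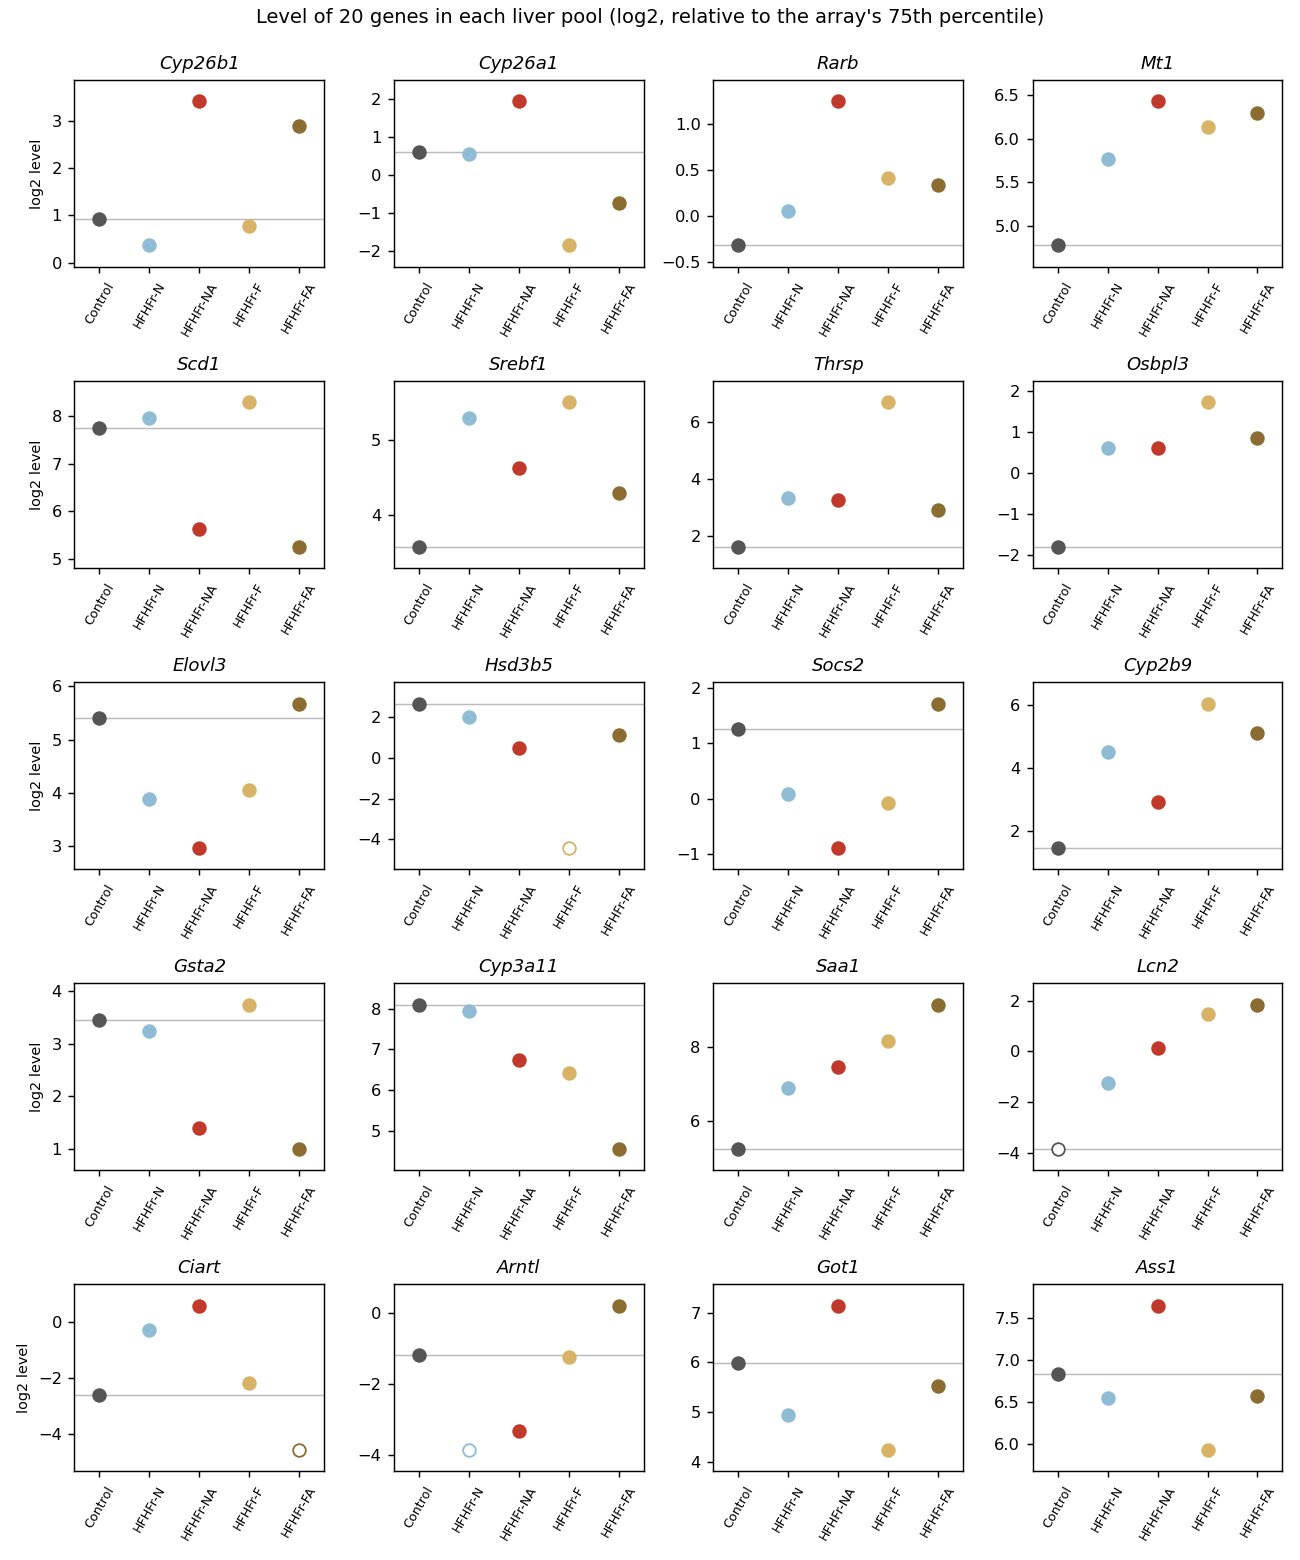
Each panel gives the log2 level of 1 gene, relative to the array's 75th percentile, in the 5 pools on the x axis, with 1 point per pool, a grey line at the Control level and hollow points where the gene was not well above background. HFHFr-NA (red) is far from Control for Cyp26b1 (3.42 against 0.93), Scd1 (5.64 against 7.74) and Elovl3 (2.97 against 5.41), and the y axes differ between panels.

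Some enzymes that detoxify foreign compounds were lower. Of 46 measured cytochrome P450 and conjugation genes 6 were at least 2-fold lower, 1 was higher and 39 were under 2-fold. Among all measured genes 1.45% were lower and 2.0% higher by as much. In the list 29 had ratios below 0, and the median was -0.35, against 0.05 over all measured genes. Gsta2, a glutathione transferase that neutralises lipid peroxidation products, had levels of 3.46 in Control and 1.40 in HFHFr-NA, beside 3.25 for HFHFr-N, 3.75 for HFHFr-F and 1.0 for HFHFr-FA. The 2 pools that ate retinoic acid, each a single array, stood below the other 3, and the ratio was -2.07. The share of all genes with this order, which Gsta1 also had, was not counted.

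Gsta1 had levels of 4.87, 4.99, 3.66, 5.80 and 3.82, with the pools that ate retinoic acid again the lowest, and a ratio of -1.21. The probes of Gsta1 and Gsta2 share 27 matching bases where they overlap by 28, so signal of these close relatives was not separated. Gsta4, which removes the lipid aldehyde hydroxynonenal, had levels of 1.43, 1.23, 0.16, 1.22 and 0.15, and its 10 spots per array did not overlap between HFHFr-NA and Control. Cyp3a11, the main drug-metabolising P450 of mouse liver, had levels of 8.11 in Control and 6.74 in HFHFr-NA, beside 7.95 for HFHFr-N, 6.41 for HFHFr-F and 4.56 for HFHFr-FA. Its ratio was -1.36, and from the lowest level up the pools were HFHFr-FA, HFHFr-F, HFHFr-NA, HFHFr-N and Control.

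Cyp2c70, the P450 that makes muricholic bile acids, had levels of 4.76, 4.33, 3.23, 4.98 and 5.06, so that HFHFr-NA alone was low, at a ratio of -1.52. Cyp2c55 was lower by at least 1.39 and was not well above background in HFHFr-NA or HFHFr-FA. Por, the reductase that passes electrons to all microsomal P450s, was the higher member, with levels of 7.0, 7.21, 8.06, 7.12 and 7.54 and a ratio of 1.06. The xenobiotic receptors Nr1i2 (PXR) and Nr1i3 (CAR) had ratios of 0.19 and 0.12. Bile acid genes had 0 of 28 past 2-fold and a median of -0.16, and Cyp7a1, which sets the pace of bile acid production, had a ratio of 0.04.

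Serum amyloid A and a few other acute phase proteins, which liver secretes under cytokines in inflammation, were higher, while most of their list stayed within 2-fold. Saa1, serum amyloid A, had levels of 5.25 in Control and 7.45 in HFHFr-NA, beside 6.88 for HFHFr-N, 8.18 for HFHFr-F and 9.15 for HFHFr-FA. Control was the lowest pool, and HFHFr-NA was 4.61-fold above it. Saa2 had a ratio of 2.43 and Saa3 of 1.85, with the same order of pools. Lcn2, lipocalin 2, which withholds iron from bacteria, was not well above background in Control and had a level of 0.15 in HFHFr-NA, beside -1.26 for HFHFr-N, 1.49 for HFHFr-F and 1.85 for HFHFr-FA. It was higher in HFHFr-NA by at least 3.68, or at least 12.8-fold, the largest bound among named genes. That value depends on the processing, and under other settings it ran from 1.68 to 3.98.

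Of the 30 acute phase and iron genes, all measured, 6 were higher and none lower, against 2.0% and 1.45% of all measured genes. Their median was 0.30. The 6 were the close relatives Saa1, Saa2 and Saa3, Lcn2, Orm3, an orosomucoid, at 1.39 and Tfrc at 1.34. Classical members such as Hp (haptoglobin) at 0.30, C3 at 0.12, Crp at -0.32 and Fgb at 0.09 stayed within 2-fold. Metallothioneins, which bind zinc and copper, were higher too: Mt1 had levels of 4.78 in Control and 6.43 in HFHFr-NA, beside 5.77 for HFHFr-N, 6.14 for HFHFr-F and 6.30 for HFHFr-FA. HFHFr-NA was the highest pool, at a ratio of 1.66, and Mt2 at 1.79 had its highest level there as well. They were the only 2 of 19 measured NRF2 and antioxidant genes past 2-fold, and Gclm, a subunit of glutathione synthesis, had a ratio of -0.96.

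Markers of immune cells did not move as a block. Of the neutrophil list 3 of 11 members were measured. S100a9, a calcium-binding protein of neutrophils, had levels of 0.98, 1.74, 2.60, 2.45 and 3.34 in the fixed order, a ratio of 1.62. S100a8 was higher by at least 1.89 and Csf3r had a ratio of -0.07. The neutrophil granule genes Elane, Camp, Ngp, Mpo and Ltf were not well above background on either array. The summed level of the list, in units of the 75th percentile, was 2.42 in Control and 6.88 in HFHFr-NA, beside 3.81 for HFHFr-N, 6.24 for HFHFr-F and 11.5 for HFHFr-FA. Its part in the acute phase values was not tested.

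General macrophage and Kupffer cell markers had 0 of 17 past 2-fold, a median of -0.15 and summed levels of 167 in Control and 161 in HFHFr-NA. Lipid-associated macrophage markers had 2 of 8 measured members higher, against 2.0% of all measured genes. Trem2, a lipid-sensing receptor of macrophages, had levels of -1.68 in Control and 0.31 in HFHFr-NA, beside -0.62 for HFHFr-N, 2.54 for HFHFr-F and 1.15 for HFHFr-FA, a ratio of 1.99. HFHFr-NA thus lay between HFHFr-N and the pools still on the HFHFr diet. Itgax, an integrin, was higher by at least 1.22, while Spp1 (osteopontin) had a ratio of -0.04, Cd9 one of -0.28 and Gpnmb was not well above background on either array. Chil3, a chitinase-like protein of activated macrophages, had levels of -2.61, -2.42, -0.48, 0.14 and -0.38 and a ratio of 2.13.

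Of 23 measured inflammation and chemokine genes 3 were higher and 1 was lower, against 2.0% and 1.45% of all measured genes, the median being 0.32. Cxcl1, a neutrophil attractant, had levels of -2.61 in Control and -0.40 in HFHFr-NA, beside -0.72 for HFHFr-N, -0.53 for HFHFr-F and -0.61 for HFHFr-FA. Control stood below the 4 diet pools, which lay close together, and the ratio was 2.21. Around its spot 4 of 19 measured neighbouring spots were also at least 2-fold higher, against 3.83% of all such spots on the array. Ccl5, an attractant of T cells, had a ratio of 1.32 and Ccl4 was higher by at least 1.56. Cxcl13, the B cell attractant, was measured in Control (-1.19) and HFHFr-N (-2.52) and was not well above background in HFHFr-NA, lower by at least 2.56, or -0.76 under normexp.

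Of 31 measured interferon-stimulated genes 2 were lower and 0 higher, against 1.45% and 2.0% of all measured genes. Of the 31 ratios 23 were below 0, and the median was -0.40, against 0.05 over all measured genes. Over 11 other settings the median ran from -0.44 to -0.18 and the count of lower genes from 0 to 4. Gbp6, a guanylate-binding protein, had levels of 0.01 in Control and -1.68 in HFHFr-NA, beside -0.31 for HFHFr-N, 0.63 for HFHFr-F and -0.06 for HFHFr-FA. HFHFr-NA alone was low, at a ratio of -1.69. Rsad2 (viperin), an antiviral enzyme, had a ratio of -1.07, Igtp, an immunity-related GTPase, of -0.94, and Irf9, a factor of the interferon signal, of -0.77. Under normexp background correction Gbp6 had a ratio of -0.84 and Rsad2 of -0.95. MHC class II genes, induced by interferon gamma, had a median of -0.13 with 0 of 7 past 2-fold.

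Clock genes differed between the pools by some of the largest ratios. The labels do not state the hour at which livers were taken. Ciart, a repressor of the clock, had the highest ratio of all named genes measured on both arrays, 3.18, with levels of -2.60 in Control and 0.58 in HFHFr-NA, beside -0.27 for HFHFr-N and -2.19 for HFHFr-F, and it was not well above background in HFHFr-FA. Its promoter is shown with the E-boxes, the CACGTG sites that the clock activators bind, in capitals.
Ciart, chr3:95882229-95882478, minus strand, GRCm38.p6: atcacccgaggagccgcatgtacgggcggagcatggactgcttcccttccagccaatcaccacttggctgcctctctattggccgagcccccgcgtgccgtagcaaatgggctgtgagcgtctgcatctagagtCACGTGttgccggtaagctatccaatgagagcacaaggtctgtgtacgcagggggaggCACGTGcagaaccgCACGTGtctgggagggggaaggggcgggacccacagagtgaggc
Its 3 matches began 116, 58 and 44 bases before the start. CACGTG, which reads the same on both strands, was in 1634 of 27025 promoters of this length (6.05%) and in 789 of the 9613 of measured genes (8.21%). It was in 13 of 147 of genes at least 2-fold higher (8.84%), near that share, in 7 of 129 of genes at least 2-fold lower (5.43%) and in 5 of 17 of the clock list, namely Bhlhe41, Ciart, Cry1, Per1 and Tef.

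Usp2, a deubiquitinase of clock proteins, had levels of -0.23, 1.55, 1.82, 0.98 and -0.51 in the fixed order, a ratio of 2.05. Dbp, a transcription factor that cycles with the clock, had levels of 5.54, 6.88, 6.76, 4.91 and 3.10 and a ratio of 1.23. Arntl (BMAL1), the activator that peaks opposite to them, had levels of -1.18 in Control and -3.32 in HFHFr-NA, beside -1.24 for HFHFr-F and 0.19 for HFHFr-FA, and was not well above background in HFHFr-N. HFHFr-N and HFHFr-NA thus stood on 1 side of Control, and HFHFr-FA on the other.

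Of 17 measured clock genes 4 were higher (Ciart, Usp2, Per2 and Dbp) and 1 lower (Arntl), with a median of 0.63. Among all measured genes 2.0% were higher and 1.45% lower by at least 2-fold. Per2, a repressor, had a ratio of 1.37 at its brightest probe, -0.56 at another and 0.40 averaged over both. Clock, the partner of BMAL1, had a ratio of -0.67, Nr1d1 (REV-ERB alpha) of -0.63 and Cry2 of 0.63. With normexp background correction Arntl had a ratio of -0.57.

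Of 42 measured genes of the urea cycle and amino acid catabolism 1 was higher and 1 lower, shares near the 2.0% and 1.45% of all measured genes. Of the 42 ratios 32 were above 0, and the median was 0.32. Got1, the cytosolic aspartate aminotransferase, had levels of 5.98 in Control and 7.14 in HFHFr-NA, beside 4.94 for HFHFr-N, 4.24 for HFHFr-F and 5.52 for HFHFr-FA. HFHFr-NA was the highest pool, at a ratio of 1.16. Ass1, which joins citrulline and aspartate in the urea cycle, had levels of 6.83, 6.55, 7.64, 5.93 and 6.57 and a ratio of 0.82. Asl, the next enzyme, had a ratio of 0.71 and Cps1, the entry enzyme, of 0.60, while Otc between them had one of -0.45. Prodh, proline dehydrogenase, was just under the threshold at 1.99-fold. Csad, the enzyme that commits cysteine to taurine, was the lower member, with levels of 5.70, 5.22, 4.22, 5.03 and 4.65 and a ratio of -1.49.

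Markers of periportal hepatocytes, the zone where ureagenesis is concentrated, had a median of 0.25, and pericentral markers 0.03, with 0 of 14 past 2-fold in each. In gluconeogenesis and glycogen metabolism 1 of 19 genes was higher (Got1) and 0 lower, with a median of 0.22. Gys2, liver glycogen synthase, had a ratio of 0.89, Gpt, alanine aminotransferase, of 0.85, and G6pc, the last step of glucose release, of -0.22. Glycolysis and fructose entry had 0 of 27 past 2-fold and a median of 0.12.

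Most insulin and leptin signalling genes lay within 2-fold of Control, as did most of all measured genes. Of the latter 2.0% were higher and 1.45% lower by at least that much. Of 24 measured genes of insulin signalling and the IGF axis 0 were past 2-fold, with a median of -0.06. Igfbp1, an IGF-binding protein that insulin suppresses, had levels of 6.26 in Control and 6.45 in HFHFr-NA, beside 4.78 for HFHFr-N, 6.61 for HFHFr-F and 8.90 for HFHFr-FA, and Igfbp2 had 7.61, 6.70, 7.45, 4.77 and 7.23. For both, HFHFr-NA was the pool closest to Control. Insr, the insulin receptor, had a ratio of -0.55 and Foxo1, which insulin keeps out of the nucleus, of 0.71. In the leptin receptor, STAT3 and SOCS list 2 of 21 were lower, Socs2 and Socs7 (by at least 1.16), and 0 higher. Lepr had a ratio of -0.19 at its brightest probe and 0.70 at another, Stat3 one of 0.14 and Socs3, the leptin-induced inhibitor, of 0.33.

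Of 26 unfolded protein response genes 0 were past 2-fold, with 20 below 0 and a median of -0.21. The chaperones Hsp90b1 (0.05), Calr (0.17) and Canx (0.11) of the endoplasmic reticulum had ratios above 0. Creld2 had a ratio of -0.90, Manf of -0.83 and Hspa5 (BiP) of -0.63. In HFHFr-N these 3 levels were 4.94, 3.53 and 6.72. They were 4.81, 3.28 and 6.73 in HFHFr-NA and 5.71, 4.11 and 7.35 in Control. Cytosolic heat shock genes had a median of -0.25 with 17 of 21 below 0. Oxidative phosphorylation genes had a median of 0.16, with 0 of 24 past 2-fold.

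**Figure D4:**
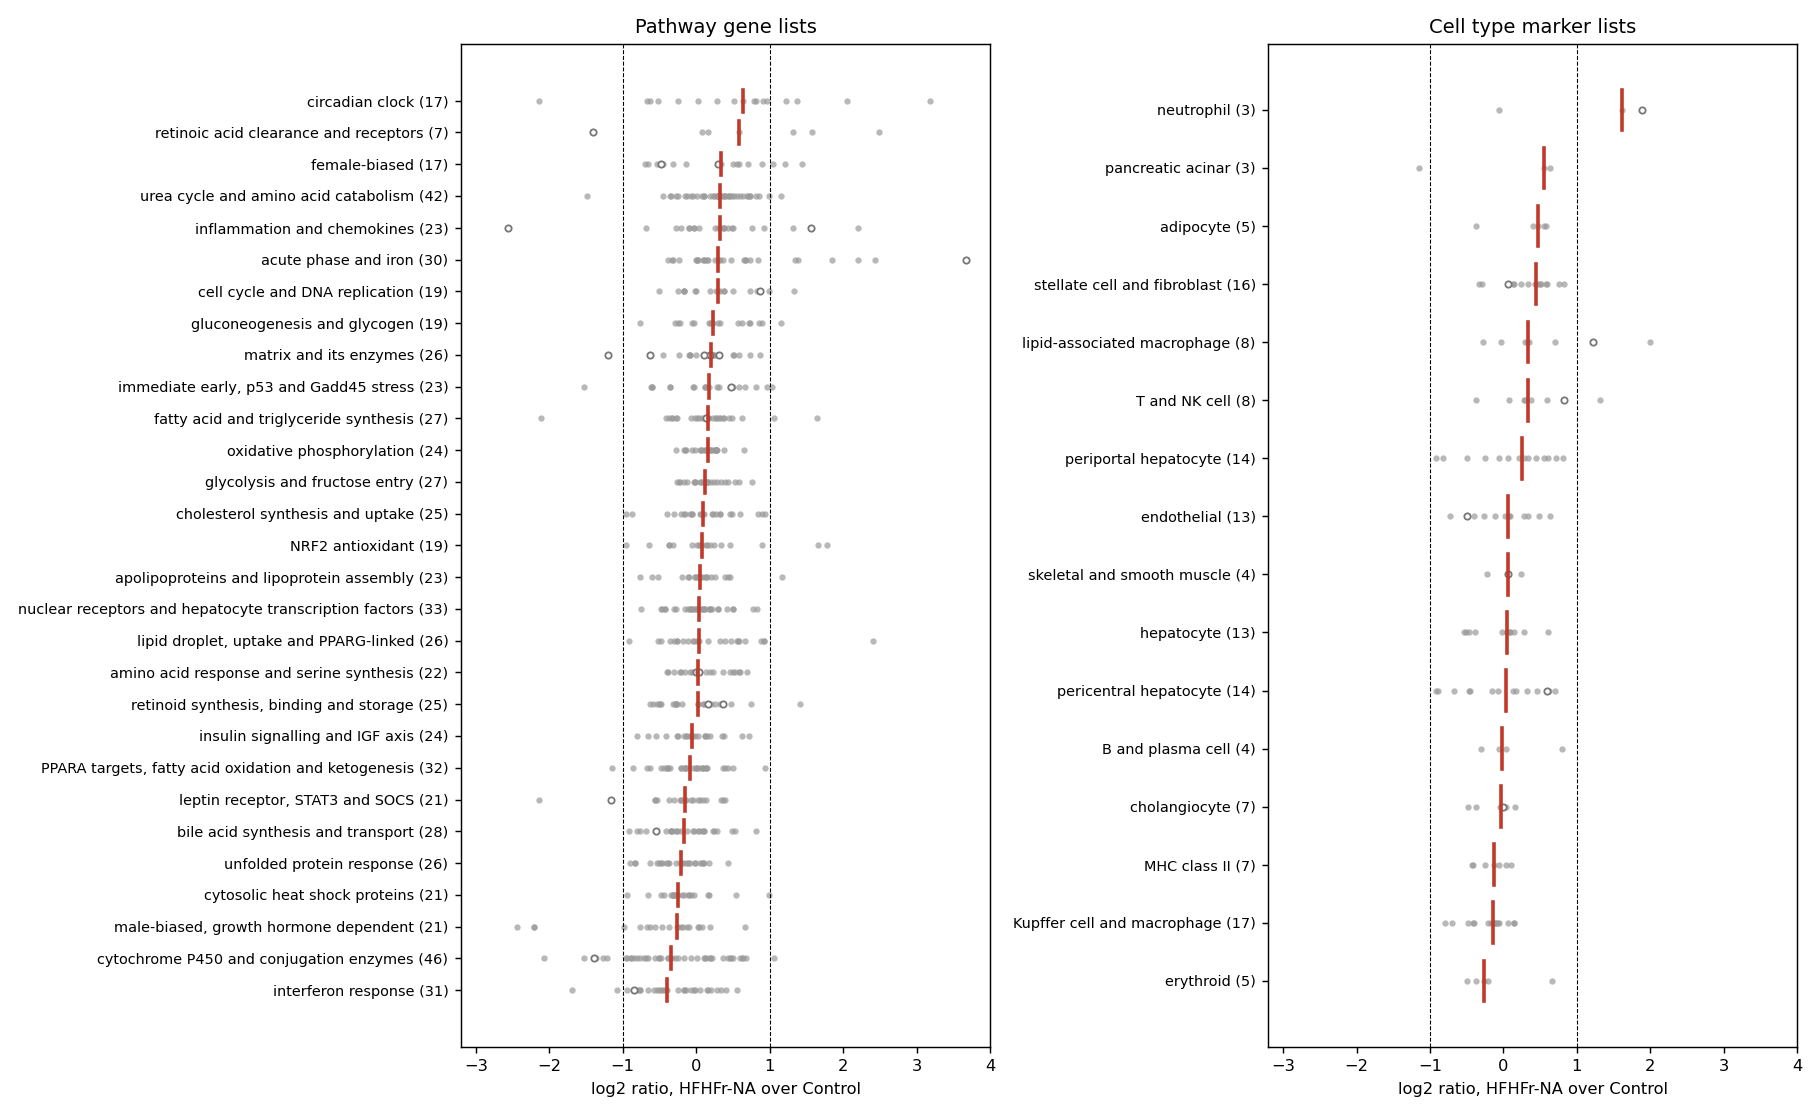
Each grey point is the log2 ratio of HFHFr-NA over Control of 1 measured gene of a list, hollow points are bounds, red bars are list medians, dashed lines mark 2-fold and the number of measured members follows each name on the y axis. The circadian clock list (median 0.63) and the retinoic acid clearance and receptor list (0.58) lie highest among pathways, interferon response (-0.40) and cytochrome P450 and conjugation enzymes (-0.35) lowest, and the neutrophil median rests on 3 genes.

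Among the lowest ratios were genes of no list. Spon2, a secreted matrix protein of innate immunity, had levels of 2.56 in Control and 0.05 in HFHFr-NA, beside 1.16 for HFHFr-N, 1.01 for HFHFr-F and 1.75 for HFHFr-FA. HFHFr-NA was the lowest pool, at a ratio of -2.52, and another probe gave -2.64. Slc25a30, a mitochondrial carrier, had a ratio of -2.19, with other probes from -2.76 to -0.34. Vps13a, a lipid transfer protein, had -2.32 at its brightest probe and values from -0.03 to 0.60 at 2 others, and -0.41 averaged over its probes. Higher genes of no list included Aim1l at 2.17, Pcsk4, a proprotein convertase, at 2.04 and Lefty1, an inhibitor of Nodal signals, at 2.13, the last of these from levels of -3.17 in Control and -1.05 in HFHFr-NA. Under normexp background correction Lefty1 had a ratio of 0.85.

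Some large bounds came from probes that were bright on 1 array only. Syt14 (at least 3.13), Slc25a34 (at least 2.83) and Cnmd (at least 2.49) were well above background in HFHFr-NA and, at that probe, in no other pool. Ms4a12 (lower by at least 3.05) and Cacnb2 (lower by at least 2.31) were so in Control and in no other pool. Under normexp Cnmd had a ratio of 0.94 and Cacnb2 of -0.57, and averaged over all their probes Syt14 had 0.90 and Cacnb2 0.0. Around Slc25a34 4 of 11 measured neighbouring spots were also at least 2-fold higher, around Ms4a12 3 of 15 were also lower and around Cacnb2 3 of 13, against 3.83% and 2.37% of all such spots. Of the 2-fold genes 33, 28 of them higher, had at least 25% of their neighbouring spots shifted the same way, among the genes above only Slc25a34. Without them 267 genes were higher and 208 lower, a count added after the data were seen. Their part in these values was not tested.

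HFHFr-FA and HFHFr-F differ by retinoic acid in the diet, as HFHFr-NA and HFHFr-N do, and of these pairs only the former shares no array with HFHFr-NA and Control. In it 406 of 14927 genes were higher (2.72%) and 423 lower (2.83%). Of the 295 genes higher in HFHFr-NA 243 were measured there, 20 of them higher (8.23%) and 42 lower (17.3%). Of the 213 lower genes 176 were measured, 19 of them lower (10.8%) and 38 higher (21.6%). In both sets the opposite direction was thus the more frequent, and both directions were more frequent than among all genes. HFHFr-FA lies on a slide and scan of its own, whose part in these values was not tested.

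Several of the retinoid and detoxification genes above were 2-fold apart in the same direction in both pairs. In HFHFr-FA against HFHFr-F Cyp26b1 had a ratio of 2.12, Cyp26a1 1.11, Scd1 -3.03, Gsta2 -2.75, Gsta1 -1.98, Gsta4 -1.07, Cyp3a11 -1.85, Saa2 1.13, Saa3 1.09 and Got1 1.28. Ces2b and Ces2c, carboxylesterases that cleave drugs and glycerides, had ratios of -1.48 and -1.44 in HFHFr-NA against Control, and -1.57 and -1.39 in HFHFr-FA against HFHFr-F. Aqp8, a water and peroxide channel, had -1.62 and -1.49. Nnmt, which methylates nicotinamide, had levels of 7.27 in Control and 8.36 in HFHFr-NA, beside 6.95 for HFHFr-N, 5.44 for HFHFr-F and 6.89 for HFHFr-FA, with ratios of 1.09 and 1.45. Kiss1, the kisspeptin gene, had 1.66 and 1.17, and the lipocalin Lcn12 1.17 and 1.48.

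Other genes went opposite ways in the 2 pairs. Hsd3b4 had a ratio of -2.21 in HFHFr-NA against Control and 4.32 in HFHFr-FA against HFHFr-F, Elovl3 -2.44 and 1.63, and Socs2 -2.14 and 1.79. Thrsp had 1.65 and -3.77, Srebf1 1.05 and -1.21, and Trem2 1.99 and -1.39. The clock genes Usp2 (2.05 and -1.49), Dbp (1.23 and -1.81) and Arntl (-2.14 and 1.43) also did. Rarb had 1.57 and -0.08. These differences between the pairs were not tested.

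**Figure D5:**
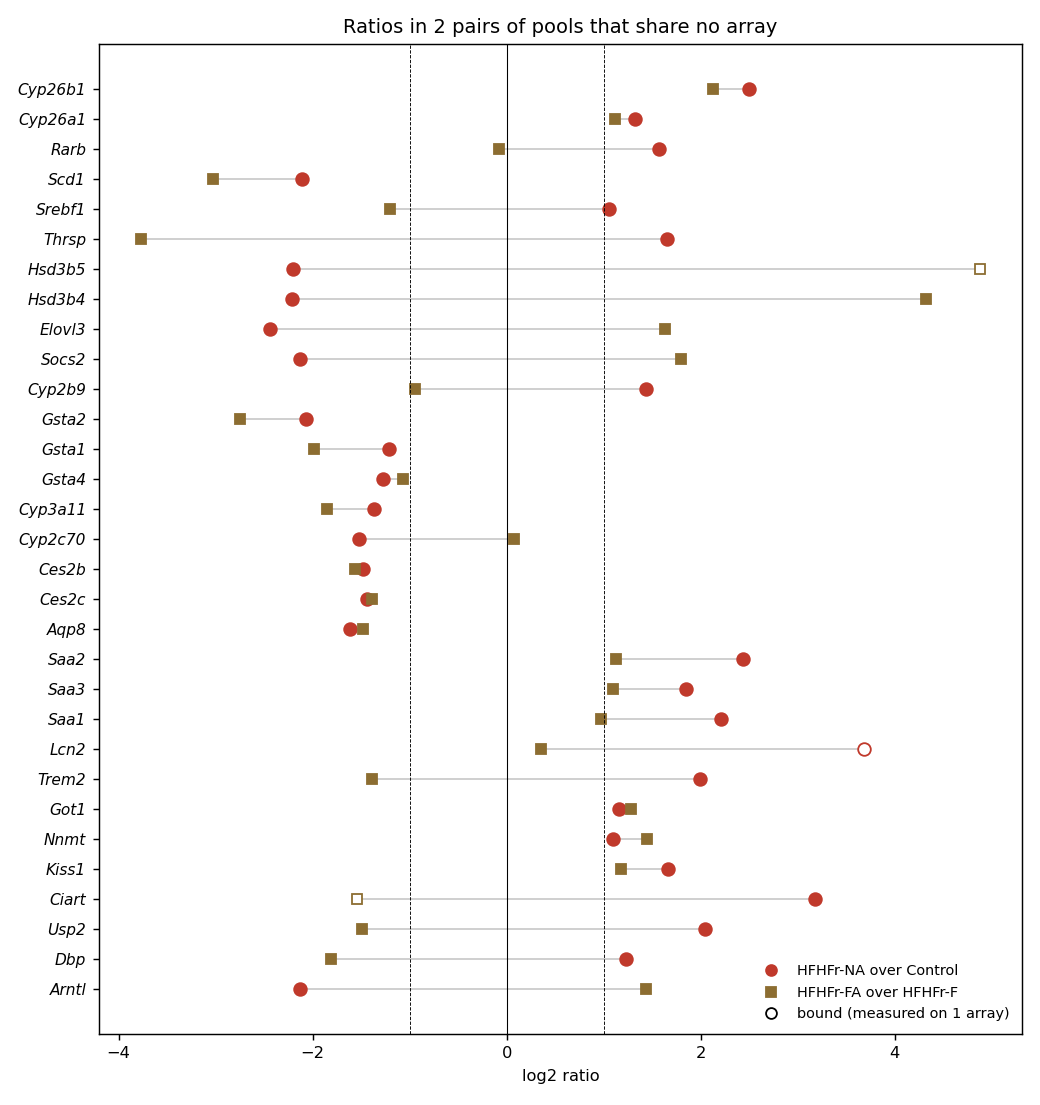
Log2 ratios of genes named in the text (y axis) are drawn for HFHFr-NA over Control (red circles) and for HFHFr-FA over HFHFr-F (brown squares), which share no array, with hollow symbols for bounds and dashed lines at 2-fold. Cyp26b1, Scd1, Gsta2 and Ces2b have both ratios on the same side of 0, while Hsd3b4, Thrsp, Srebf1 and Arntl have them on opposite sides.

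HFHFr-F against HFHFr-N, a pair that differs in whether the HFHFr diet went on and shares no array with HFHFr-NA and Control, had 538 of 14800 genes higher (3.64%) and 319 lower (2.16%). Of the genes higher in HFHFr-NA 51 of 238 measured were higher there (21.4%) and 14 lower (5.88%), and of the lower genes 26 of 174 were lower (14.9%) and 12 higher (6.90%). The median ratio there was 0.20 for the higher genes and -0.20 for the lower genes, against -0.10 over all measured genes. Saa1, Lcn2, Trem2, Thrsp, Cyp2b9 and Hsd3b4 were among genes of the same direction in both pairs, and Cyp26a1, Ciart, Dbp and Arntl among those of the opposite direction. This pair and that of HFHFr-FA with HFHFr-F share the HFHFr-F array with each other.

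HFHFr-N against Control shares the Control array with the comparison described here, so its values are only set beside it. In that comparison 167 of 14506 genes were higher (1.15%) and 121 lower (0.834%). Cyp26b1 had a ratio of -0.56 there, Cyp26a1 -0.08, Rarb 0.38, Scd1 0.21, Gsta2 -0.22, Cyp3a11 -0.15, Cyp2c70 -0.43 and Got1 -1.04. Osbpl3 had 2.41, Thrsp 1.70, Srebf1 1.73, Saa1 1.64, Cxcl1 1.89, Ciart 2.32 and Usp2 1.78. The genes were put in these groups by that ratio, within 2-fold of Control for the former, apart from Got1, and past it for the latter. Elovl3, Socs2, Trem2 and Cyp2b9 were also past 2-fold there. The HFHFr-N pool did not eat retinoic acid, and the part of retinoic acid in these values was not tested.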

How the data were processed

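RNA of 5 pooled livers per group was labelled with Cy3 and hybridised to 1-colour Agilent arrays, 1 per group. Spots were quantified with Feature Extraction 10.5.1.1 and probes placed on mm9, per the file headers. The deposited intensity of each spot is the processed signal, which has background and spatial trend removed and is not scaled between arrays. The deposited value table is a ratio of that intensity to 1 constant per array, and it served as an alternative. Its column medians were 0.0700 in Control and 0.0744 in HFHFr-NA; the origin of that constant is not stated.

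Each signal was divided by the 75th percentile of its array without control spots (173.9 in Control, 179.6 in HFHFr-NA), log2 transformed and averaged over the spots of a probe. Outlier spots, 89 and 75, were left out, and none was saturated. The probe with the highest mean stood for a gene. RefSeq named 24844 of 41174 probes, and other names are those of the array design and can be old. Exon and UTR positions were not determined. Bounds used whichever was higher, the probe's own signal or the lowest one well above background on that array. A bound under 1-fold was set to 0. Spots of probes printed 10 times had a median SD of 0.08 in Control and 0.07 in HFHFr-NA.

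Named were the 12 highest and lowest ratios with a proper symbol, the 4 highest and lowest bounds, up to 4 members of each of 29 pathway and 16 marker lists, and a short set of retinoid, lipid, insulin, detoxification and clock genes. The text gives part of them, and 1 gene is not reported here. Named outside that rule, after their values were seen, were Alb, Rarg, Rxrb, Rxrg, Tfrc, Igf1, Acaca, Acly, Elovl6, Gpam, Mlxipl, Nr1h3, Hsp90b1, Calr, Canx, Ghr, Stat5b, the Cyp3a genes of the female list, Gsta1, Cyp2c55, Por, Nr1i2, Nr1i3, Hp, C3, Crp, Fgb, S100a8, the neutrophil granule genes, Itgax, Spp1, Cd9, Gpnmb, Ccl4, Irf9, Clock, Nr1d1, Cry2, Otc, G6pc, Insr, Stat3, Socs7, Ces2b, Ces2c, Aqp8, Nnmt, Kiss1, Lcn12, Rara and the genes with E-boxes. Cish, Hsd3b2 and Selenbp2 were named outside that rule too. The lists hold 946 symbols, of which 929 matched, and some genes stand in several lists. Members and lists were chosen with earlier results of these data known. Other probes are quoted where they differ. Motifs were searched in the RefSeq promoter table by symbol. Python 3.11.15, pandas 2.3.3, R 4.3.3 and limma 3.58.1 were used, and the scripts were tested on simulated data.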

Additional observations from a re-analysis of the deposited data

How the results depend on the processing

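The counts of 295 higher and 213 lower genes stayed within 1.5 times under median centring, the 75th percentile over measured probes, cyclic loess, quantile normalization, the deposited value table, the mean of probes and kept outlier spots. They were 59 and 62 with normexp background correction (offset 50), 62 and 65 with normexp and quantile normalization, 187 and 130 for genes measured on both arrays, 1186 and 1059 with no detection filter, 1183 and 920 at 1.5-fold, and 81 and 57 at 3-fold. The smaller counts of the filter and of the higher threshold follow from their construction, and the cause of the normexp counts was not tested. Of 61 named genes past 2-fold 44 stayed past it the same way under every alternative that gave a value, and 0 changed sign. Among list medians, those of retinoid synthesis, binding and storage (-0.19 to 0.02), lipid droplets, glycolysis, female-biased genes, NRF2 targets, apolipoproteins, hepatocytes, pericentral hepatocytes, endothelium, B cells, cholangiocytes, pancreatic acinar cells and muscle had the other sign under at least 1 alternative. No paired analysis was possible because each group is 1 array. A ratio needs signal well above background on both arrays, and a probe dim on 1 of them gives only a bound.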

Other observations

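Several genes of no list were far apart between the pools and are given as values, chosen after they were seen. Upp2, a liver uridine phosphorylase, had levels of 1.17 in Control and 3.07 in HFHFr-NA, beside 2.68 for HFHFr-N, 2.25 for HFHFr-F and 0.63 for HFHFr-FA, highest in HFHFr-NA, as was Usp2. Tff3, a trefoil peptide, had levels, in the fixed order given above, of -2.33, -2.52, -0.71, 0.63 and -1.07 and a ratio of HFHFr-NA over Control of 1.62. Ubd, a ubiquitin-like protein induced by cytokines, had levels of -0.26, 0.64, 0.97, 4.29 and 2.71 and a ratio of 1.23. Serpinb1a, an inhibitor of neutrophil proteases, had levels of 3.70, 3.07, 2.25, 1.21 and 2.09 and a ratio of -1.46. Gadd45b, a stress-induced growth arrest gene, had a ratio of -1.52, or -0.97 under normexp background correction, and its relative Gadd45g one of 0.97. Tk1, the thymidine kinase of dividing cells, was the 1 of 19 measured cell cycle genes past 2-fold, with levels of 1.45, 2.49, 2.78, 2.07 and 1.76 and a ratio of 1.33.

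Stellate cell and fibroblast markers had a median of 0.44 over 16 measured members, with 0 past 2-fold and summed levels of 160 in Control and 191 in HFHFr-NA. Pdgfrb, a receptor of these cells, had a ratio of 0.82, and the collagen gene Col1a1 differed by 0.52 over its 10 spots per array, which did not overlap. Amy2a5, a pancreatic amylase, had levels of 2.88, 2.72, 1.74, 1.28 and 1.52 and a ratio of -1.15, while the other 2 measured pancreatic acinar markers had ratios above 0, Cel 0.63 and Ctrb1 0.55.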
